A study of Mus musculus with 40 samples.

Results

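Of the 75060 genomic regions recovered in a reporter screen for enhancers of blood cell specification, 2548 scored from hemogenic endothelium 1 (HE1) through hematopoietic progenitors (HP) and are described here as HE1-to-HP regions, or members. They were chosen by the readout itself. Fragments of all 40 libraries that overlapped by 1 bp or more were joined into regions, and a region was taken when it held at least 1 reporter-positive fragment at HE1, at hemogenic endothelium 2 (HE2) and at HP, with the replicates pooled, and none in embryonic stem (ES) cells or hemangioblast-like (HB) cells. The stage pattern of these regions is therefore a property of the selection, and it is given as a description without a test.

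The cells were mouse HM-1 ES cells of strain 129/ola, in which a non-functional Hprt locus is restored as the reporter construct recombines into it. Every construct carried 1 piece of open chromatin, cut by the Tn5 transposase from cells of the 5 stages, in front of an HSP68 minimal promoter and the Venus-YFP gene. HB cells were sorted as FLK1+, HE1 as KIT+TIE2+CD41-, HE2 as KIT+TIE2+CD41+ and HP as KIT+TIE2-CD41+ from cultures in serum, and each stage was divided into Negative, Low, Medium and High YFP gates, the Negative gate having been set with a line that carried the minimal promoter alone. All 20 groups (5 stages in 4 gates) shared the cell line, the locus and the construct, and each was present in 2 replicates. The methods describe 1 transfected population per experiment, from which the later stages were grown, but neither they nor the labels say that a replicate number marks 1 such experiment. Nothing shows that the stages of a replicate were independent cultures. The p-values of comparisons over sorts measure only the spread between these sorts, which may be technical. A fragment was assayed at Hprt and not at its own position in the genome. The libraries were genomic DNA, so no marker transcript was measured and the identity of a stage rested on its surface gates. In what follows a sort is 1 stage of 1 replicate, fragments from any of the 3 YFP-expressing gates are called positive and those from the Negative gate negative. ES and HB are called the early stages, and HE1, HE2 and HP the late ones.

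Each library was a list of different fragments without read counts, so its depth was its number of fragments. The 40 libraries held 654 to 51146 fragments, with a median of 15805 in replicate 1 and 2750 in replicate 2.

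Enhancers are stretches of DNA that raise transcription from a promoter when bound by transcription factors, and a reporter assay asks whether a piece of DNA can do so on its own. Blood cells of the embryo arise from hemogenic endothelium, whose cells give up endothelial character in the endothelial-hematopoietic transition, a change that requires the transcription factor RUNX1. ETS factors, GATA2, TAL1 and, downstream of RUNX1, the myeloid factor PU.1 act in the same network, and AP-1 and TEAD factors link it to signalling.

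Sequences of 6 members are shown so that motif matches can be read where most positive fragments of a member overlapped. These stretches are not the central windows or whole fragments searched in the comparisons, and their matches can differ from those counted there. The Mast4 member was the only region that met the rule in each replicate on its own, those at Spi1, Zfpm1 and Cd34 lay nearest to blood genes, and those at Tbc1d24 and Sqstm1 held the most positive fragments. Each is the RefSeq reference sequence of mm10 (GRCm38), plus strand, in 200 bases around the position that the most positive fragments covered. Capitals mark matches to the motifs searched on both strands, which were TGANTCA for AP-1, TGTGGT for RUNX, GAGGAA for PU.1, GGAAGT for ETS, GATAAG for the GATA factors, GGAATG for TEAD, ACAANGG for SOX, ATGCAAA for OCT, CAGCTG for the E-box, TGGGAA for RBPJ and the CTCF consensus. Capitals that run together mark overlapping matches.
Mast4, chr13:103212221-103212420: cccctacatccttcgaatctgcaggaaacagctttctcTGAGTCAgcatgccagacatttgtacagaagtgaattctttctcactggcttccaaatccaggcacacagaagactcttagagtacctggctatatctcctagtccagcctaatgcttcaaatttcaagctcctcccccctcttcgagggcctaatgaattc
Spi1, chr2:91083015-91083214: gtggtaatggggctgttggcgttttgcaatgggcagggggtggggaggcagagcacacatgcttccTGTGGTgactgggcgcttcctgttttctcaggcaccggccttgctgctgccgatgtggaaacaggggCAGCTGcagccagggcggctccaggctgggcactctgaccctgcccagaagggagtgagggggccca
Zfpm1, chr8:122315068-122315267: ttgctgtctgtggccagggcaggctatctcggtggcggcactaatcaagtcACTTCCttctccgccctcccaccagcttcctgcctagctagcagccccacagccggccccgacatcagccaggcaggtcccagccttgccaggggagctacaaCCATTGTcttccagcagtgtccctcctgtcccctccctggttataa
Cd34, chr1:194928000-194928199: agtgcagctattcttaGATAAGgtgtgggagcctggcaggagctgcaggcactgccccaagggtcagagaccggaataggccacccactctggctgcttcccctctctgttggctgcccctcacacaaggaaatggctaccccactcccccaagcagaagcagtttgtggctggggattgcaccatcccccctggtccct
Tbc1d24, chr17:24197160-24197359: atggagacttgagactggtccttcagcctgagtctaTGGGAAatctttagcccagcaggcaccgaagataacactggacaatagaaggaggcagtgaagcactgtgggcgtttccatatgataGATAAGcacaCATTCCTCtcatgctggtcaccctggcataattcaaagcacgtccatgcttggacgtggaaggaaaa
Sqstm1, chr11:50213113-50213312: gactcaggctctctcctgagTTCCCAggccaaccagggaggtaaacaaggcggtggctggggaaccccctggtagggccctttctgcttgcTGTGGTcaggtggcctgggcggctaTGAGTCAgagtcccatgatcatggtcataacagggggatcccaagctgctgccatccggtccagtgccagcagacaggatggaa

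The Mast4 sequence held an AP-1 match. That of Spi1 held a RUNX and an E-box match, that of Zfpm1 an ETS and a SOX match, and that of Cd34 a GATA match. PU.1, GATA, TEAD and RBPJ matches stood in the Tbc1d24 sequence, where the TEAD and PU.1 letters overlapped, and AP-1, RUNX and RBPJ matches in that of Sqstm1. Short motifs are frequent, and in the central 200 bases of all 75060 regions AP-1 was present in 9.27%, RUNX in 16.5%, PU.1 in 22.6%, ETS in 16.4%, GATA in 8.38%, TEAD in 13.0%, SOX in 11.9%, OCT in 3.42%, E-box in 13.9%, RBPJ in 19.9% and CTCF in 2.01%. A match is a description of letters and not a bound site.

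The members made up 4.04% of the 63070 regions that were positive at any stage, and they held 29778 positive fragments. A member had a median of 9, a minimum of 3 and a maximum of 68 positive fragments. HE1 contributed 13649 of them, HE2 9970 and HP 6159, and the median per member was 4 at HE1, 3 at HE2 and 2 at HP. Many members only just met the rule. In 1310 of them at least 1 of the late stages was represented by a lone fragment, which was the case at HP in 998, at HE2 in 532 and at HE1 in 342. The remaining 1238 had 2 or more fragments at every late stage. Just outside the rule lay 891 regions that were positive at every late stage and had a lone positive fragment at ES or HB, with a median of 8 late fragments. A further 3366 regions lacked a positive fragment only at HP (median 5 late fragments), 663 only at HE1 (median 3) and 575 only at HE2 (median 3). Of the 10053 regions positive at all of the late stages, 25.3% were members and 4664 were positive at all 5 stages. When every stage was thinned to the same 38902 positive fragments, 1548 ± 21.2 regions met the rule (mean ± SD of 20 draws).

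Membership was carried almost wholly by replicate 1, which supplied 97.8% of the positive fragments of members. Of the 2548 members, 2186 were positive in replicate 1 alone, 71 in replicate 2 alone and 291 in both. Taken by itself, replicate 1 met the rule in 2645 regions and replicate 2 in 82, and 1 region met it in both.

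To ask whether the pattern recurred, the regions chosen in 1 replicate were followed in the other. Fragments of both replicates had set the borders of the regions, but the stage calls of the other replicate had no part in that choice. Of the 2645 regions chosen in replicate 1, 459 had a positive fragment in replicate 2. These were 222 regions positive there at late stages only, 181 at early stages only and 56 at both. Late stages thus made up 55.1% of the regions seen on only one side of the HB to HE1 step, against 66.2% for all regions of replicate 2. In shares of the positive fragments of replicate 2, the chosen regions made up 1.15% at ES and 1.40% at HB, followed by 0.741%, 1.27% and 1.90% from HE1 to HP. The lowest of the 5 values was thus at a late stage and so was the highest. That lowest value, at HE1, rested mostly on the Low library, which gave 31915 of the 36021 positive fragments of the sort. Regions positive at all 5 stages made up 8.95% of that library, against 21.9% of the Medium and 11.4% of the High library of the sort. The part of the Low library in the recurrence values was not tested. The 82 regions chosen in replicate 2 held 0.138% of the positive fragments of replicate 1 at ES and 0.113% at HB, then 0.108%, 0.0880% and 0.134% from HE1 to HP, with the highest value at ES. Only 11 of the 82 were positive in replicate 1 at all, 9 of them at both early and late stages. Averaged over both directions, the late stages exceeded the early ones by 0.00765 percentage points (one-sided exact permutation test within replicate, p = 0.49, n = 10 sorts). Recurrence of the late-only pattern was not detected in this average. By direction, the difference was 0.0306 points for regions chosen in replicate 1 and -0.0153 for those chosen in replicate 2 (one-sided exact permutation p = 0.5 and 0.9). A single direction has only 10 arrangements of the stage labels and allows no p under 0.05, so it could not have passed.

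**Figure D1:**
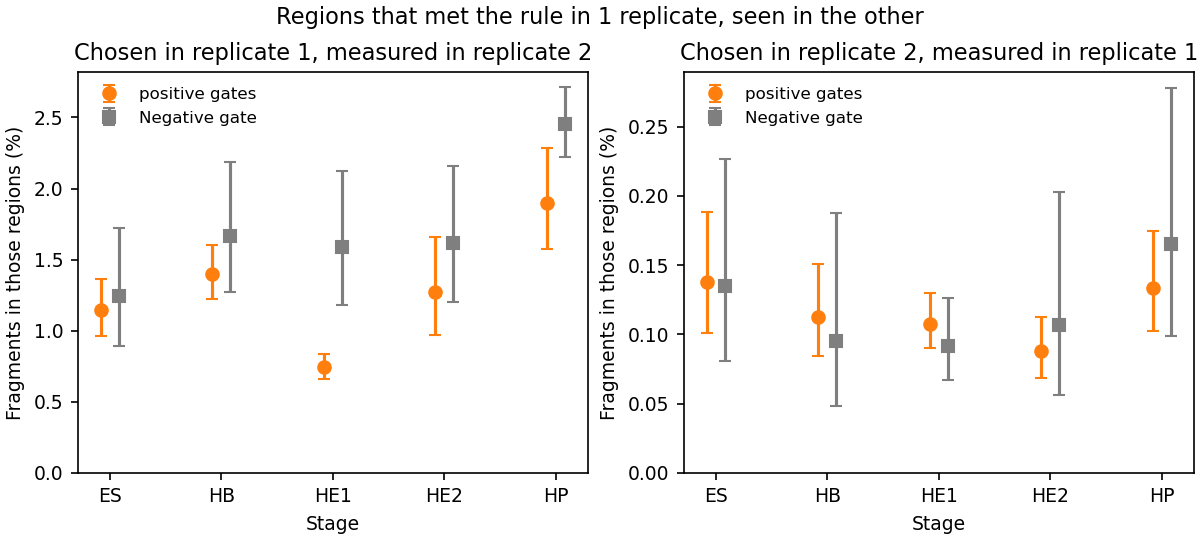
Percentage of the fragments of each stage that lay in regions chosen by the rule in 1 replicate, measured in the other replicate (left, 2645 regions chosen in replicate 1; right, 82 chosen in replicate 2). Circles are positive gates, squares the Negative gate, bars Wilson 95% intervals that cover counting error only. In neither panel did every late stage (HE1, HE2, HP) stand above both ES and HB, for circles or for squares.

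Fragments of the Negative gate helped to set the borders of regions but did not enter the stage calls of the rule. Members held 0.686% of the negative fragments at ES and 0.890% at HB in replicate 1, but 13.0% at HE1, 13.0% at HE2 and 14.4% at HP. In replicate 2 the shares were 1.35% at ES and 1.80% at HB, against 3.28% at HE1, 3.48% at HE2 and 2.64% at HP. Every late value exceeded every early value of the same replicate. The late libraries averaged 8.29 ± 5.68% (SD, n = 6) and the early ones 1.18 ± 0.497% (SD, n = 4), 7.11 points apart. Members had been chosen for fragments in these same late sorts and for their lack in the same early sorts, so this difference is a description and is given without a test. It was 12.7 points within replicate 1 and 1.56 within replicate 2. With members chosen anew, it was 1.31 points without HE1 of replicate 1, 0.943 without HE2 of replicate 1 and 1.19 without HP of replicate 1, against 11.5 without HB of either replicate, 1.38 without replicate 1 and 14.5 without replicate 2.

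Where the choice was made in the other replicate, the difference could be tested. Regions chosen in replicate 1 made up 1.24% and 1.67% of the negative fragments of replicate 2 at ES and HB, and 1.59%, 1.61% and 2.45% from HE1 to HP. Over both directions the late stages were higher by 0.217 points, which did not pass (one-sided exact permutation within replicate, p = 0.24, a setting chosen after seeing the data). Regions positive at all 5 stages held 30.9 ± 13.3% of late and 37.5 ± 23.6% of early negative fragments (SD, n = 6 and 4).

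**Figure D2:**
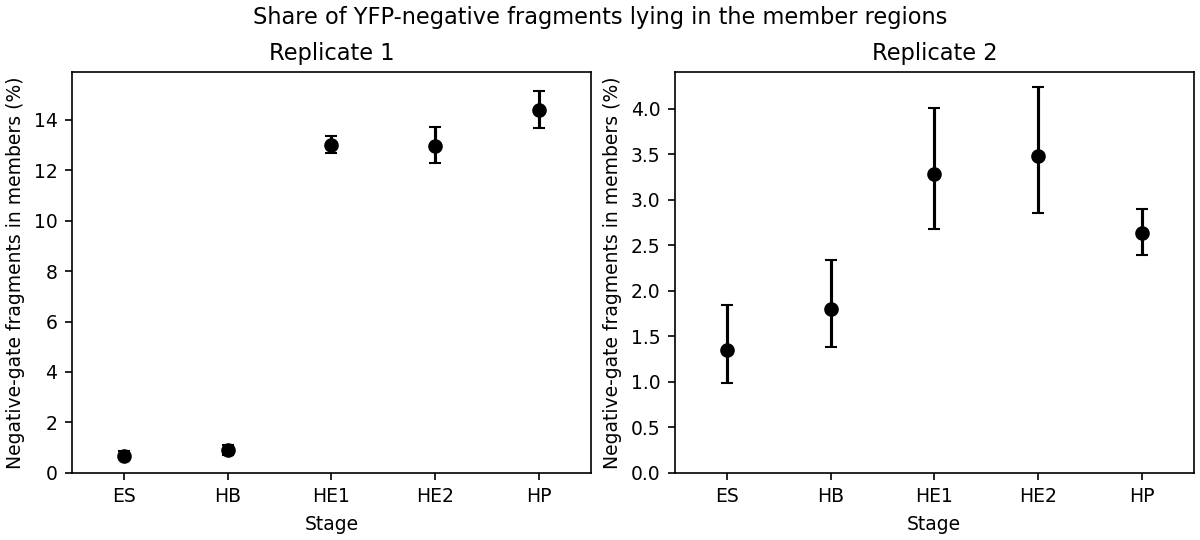
Percentage of the Negative-gate fragments of each stage that lay in the 2548 members, by replicate, with Wilson 95% intervals that cover counting error only. Replicate 1 stood under 1% at ES and HB and at 13.0% to 14.4% from HE1 on; in replicate 2 the shares ran from 1.35% to 3.48%, on an axis of its own.

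Counted by region, 175 members (6.87%) had any negative fragment at ES or HB, 85 of them at ES, 109 at HB and 19 at both. The other 2373 members had no fragment in any gate at either early stage, so that no fragment showed them silent there. By contrast, 2228 members (87.4%) had a negative fragment at a late stage. In the reverse class, 71 of the 832 regions positive at ES and HB only (8.53%) had a negative fragment at a late stage. Among regions positive at all 5 stages, 79.6% had an early negative fragment, and among the 3909 regions positive at 3 other stages 34.2% did. The study's methods describe a restriction of fragments to sites open at the stage in question, and do not say whether it was applied to the Negative lists. A missing early fragment may therefore have been left out by that restriction or not recovered, which cannot be told apart here.

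Negative and positive fragments of a sort were often identical. At HE1 of replicate 1, 3955 of the 5384 negative fragments in members (73.5%) were also found in a positive gate of that sort, and in replicate 2 this was 72.5% at HE1 and 72.6% at HE2. The share was 7.78% at HE2 of replicate 1 and 16.8% at HP of replicate 2, and at HP of replicate 1 it was 0 of 1217, which with the Wilson interval allows up to 0.315%. Negative fragments with no identical positive fragment anywhere in replicate 1 were, at HE1, 1321 of 5384 in members and 10653 of 41374 in the whole library. In replicate 2 they were 17 of 91 and 638 of 2773 at HE1, and 18 of 95 and 696 of 2727 at HE2. Frequent identity was thus not particular to members. With every negative fragment that was also positive in its replicate left out, the late minus early difference was 6.86 points, and without the HE1 Medium library of replicate 1 it was 6.57 points, with 2267 members.

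The same fragment could be followed where it was negative early and positive late in the same replicate. By the rule an early fragment of a member could only be negative, so the direction of such a change was set by the selection. The count is given for members alone. It was 71 of their 239 early negative fragments, in 61 members. The Mast4 member (chr13:103212202-103212496, in an intron, 122143 bp downstream of the nearest start site) was among them with 3 such fragments. Mast4 encodes a microtubule-associated serine/threonine kinase. The region had 2 negative fragments at ES and 1 at HB in replicate 2, and no positive fragment there. From HE1 on it had 4, 2 and 5 positive fragments in replicate 2 and 4, 1 and 1 in replicate 1, at HE1, HE2 and HP respectively. All 17 positive fragments covered the centre of the sequence printed for it, and in replicate 2 it also had 1 negative fragment at HE1, 3 at HE2 and 2 at HP.

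At most members no fragment was found at every late stage. The members contained 26872 different positive fragments, and 93.2% of them were positive at 1 stage only. There were 215 fragments positive at each late stage and 1623 at just 2 stages. Of the latter, 765 were positive at HE1 and HE2 and 332 at HE2 and HP, and the remainder, more than those at HE2 and HP, were positive at HE1 and HP without HE2. In 209 members (8.20%) an identical fragment was positive at all of the late stages, in 1113 (43.7%) at 2 of them, and in 1226 (48.1%) no fragment was positive at more than 1 stage. For the last class the 3 stages were joined only by overlap between different fragments. These counts are given for members alone, and whether such shares are particular to members was not tested.

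The strength of the reporter signal was compared through the YFP gates, which the rule had pooled. In replicate 1, the High gate held 30.7% of the positive fragments of members at HE1, 25.4% at HE2 and 36.1% at HP, against 37.9%, 25.9% and 42.6% for other regions. In replicate 2 it held 9.42%, 11.8% and 31.6%, against 3.88%, 16.1% and 31.9%. Members were thus lower in 5 of 6 sorts, and HE1 of replicate 2 was the exception. The mean difference was -2.20 ± 4.78 percentage points (SD, n = 6), less than the SD over sorts (exact permutation by sign changes, two-sided p = 0.281, adjusted over 3 gates 0.75). The Medium gate differed by 2.32 ± 7.22 points (SD, n = 6; exact permutation p = 0.5) and the Low gate by -0.114 ± 9.73 points (SD, n = 6; exact permutation p = 1.0). No difference in signal strength was detectable.

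**Figure D3:**
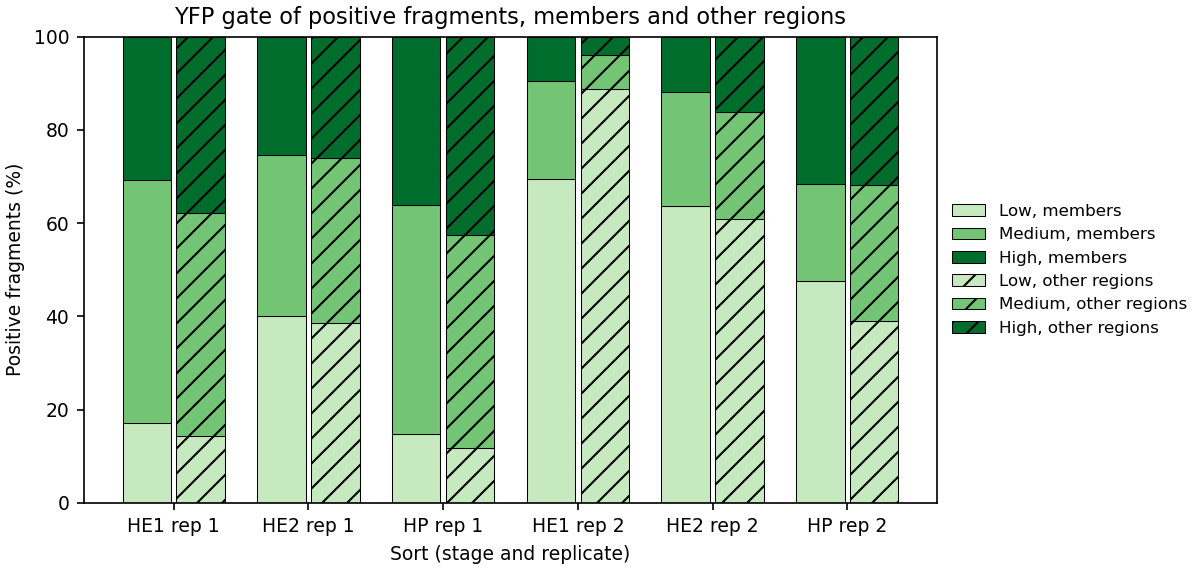
Percentage of the positive fragments of each late sort found in the Low, Medium and High YFP gates, for members (plain bars) and all other regions (hatched bars). Members were lower than other regions in the High gate in 5 of 6 sorts, and the widest gap of the panels was in the Low gate at HE1 of replicate 2, with 69.5% against 88.8%.

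By region, 745 members had a High fragment at every late stage and 208 had none at any. For Medium these numbers were 1128 and 90, and for Low 440 and 240. In 126 members every one of the 9 late gates was filled. Individual regions were tested for a bias between the High and Low gates with a Cochran-Mantel-Haenszel test over the sorts in 5701 regions with at least 10 such fragments, of which 5 were called in all (0.0877%). Of the 460 members tested, 0 were called. That test treats each fragment as an independent draw within its sort, so its p-values hold no spread between sorts or replicates. At an unadjusted p under 0.05 there were 27 members (5.87%), 22 with more Low and 5 with more High fragments, against 244 (4.28%) of all regions tested, 141 and 103 in the same order.

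The median fragment in members was shorter than that in other regions in each late sort. Their median length was 141 bp at HE1, 145 bp at HE2 and 136 bp at HP in replicate 1, against 154, 162 and 145 bp in other regions. In replicate 2 it was 219.5, 198 and 182 bp, against 331, 219 and 191 bp. Members lay lower in 6 of 6 sorts, by a mean of -30.1 ± 40.2 bp (SD, n = 6; exact permutation, two-sided p = 0.0312, the smallest that 6 sorts allow), most of it from HE1 of replicate 2. The sorts of a replicate largely held the same members, so the 6 differences were not independent of each other, for length and for GC content alike. With 2 or more fragments required at each late stage the difference was -14.2 bp (exact permutation p = 0.5). GC content did not differ beyond the spread. It was 51.8%, 51.6% and 51.8% in members at HE1, HE2 and HP of replicate 1, against 55.7%, 55.6% and 56.7% in other regions, but 50.6%, 50.2% and 51.5% in replicate 2, against 49.0%, 50.6% and 50.4%. The mean difference was -1.74 ± 2.87 points (SD, n = 6; exact permutation p = 0.219). Against regions positive at all 5 stages, fragments in members had a lower GC content in 6 of 6 sorts, by -5.65 ± 1.70 points (SD, n = 6; exact permutation p = 0.0312).

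Sequence was not used by the rule. In the comparison of whole fragments, none of the 11 motifs passed after adjustment (adjusted exact permutation p of 0.115 or more), and 3 differed at the smallest unadjusted p that 6 sorts allow (exact permutation p = 0.0312). ETS matches, the core letters of a family that includes FLI1 and ERG, were present in 23.4% of member fragments and 16.4% of others on average, and AP-1 matches in 13.1% and 9.34%, both higher in 6 of 6 sorts. RBPJ matches, the letters bound by the effector of Notch signalling, were lower in 6 of 6, with 17.8% against 19.4%. Fragments of members were also shorter in 6 of 6 sorts, and the part of length in these shares was not tested.

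An alternative searched the central 200 bases of each positive region and counted each region once per sort, and in it 7 of the 11 motifs passed. It changed both the stretch searched and the unit counted, and the part of each in the count was not tested. ETS matches were present in 26.0% of member windows and 17.3% of other windows, a difference of 8.66 ± 2.11 points (SD, n = 6). GATA matches differed by 5.38 ± 1.94 points (14.1% against 8.72%), PU.1 matches by 5.16 ± 3.14 (28.3% against 23.2%), RUNX matches by 5.03 ± 2.62 (21.2% against 16.2%) and AP-1 matches by 4.65 ± 2.19 (14.7% against 10.1%; SD, n = 6 for each). The E-box CAGCTG, bound by basic helix-loop-helix factors, differed by 3.11 ± 2.75 points (SD, n = 6). These 6 were more frequent in members in 6 of 6 sorts, and RBPJ matches were less frequent in 6 of 6, by -2.73 ± 0.849 points (SD, n = 6). For each of the 7 the exact permutation p was 0.0312, or 0.0491 after adjustment over 11 motifs. As 0.0312 is the smallest p that 6 sorts allow, passing depended on how many motifs tied at it. TEAD, SOX, OCT and CTCF matches did not pass, with differences of -2.07, 0.574, -0.0360 and -1.76 points.

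**Figure D4:**
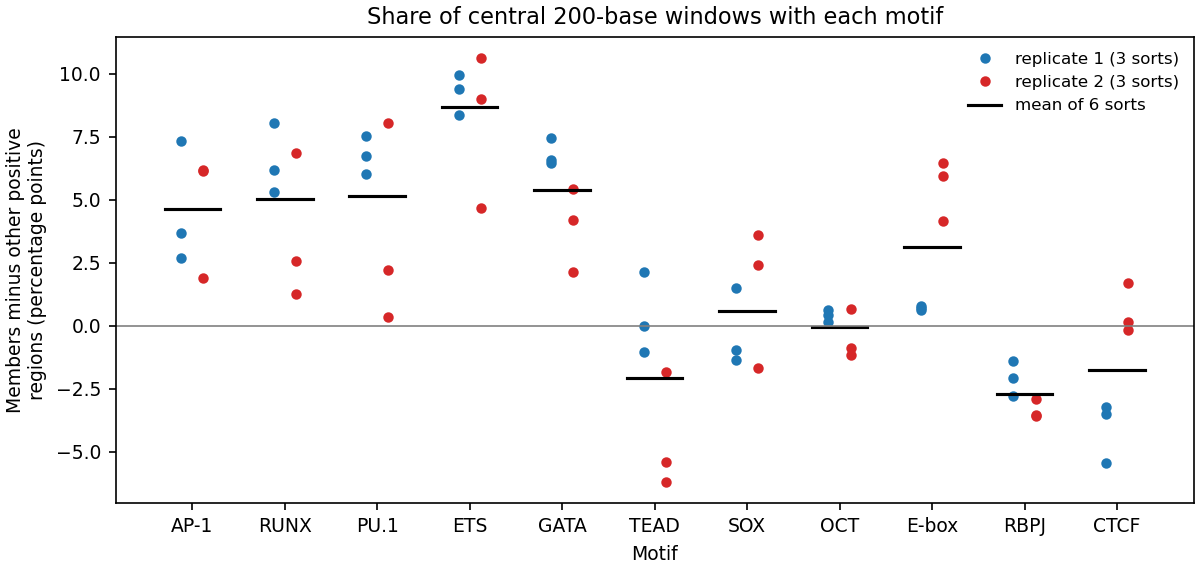
Difference in the share of central 200-base windows that held each motif, members minus other positive regions, in percentage points. Each point is 1 sort (blue, replicate 1; red, replicate 2) and each line the mean of 6 sorts; AP-1, RUNX, PU.1, ETS, GATA and E-box lay above 0 and RBPJ below 0 in every sort.

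The 3 sorts of a replicate largely held the same members, 2431 to 2476 in replicate 1 and 98 to 239 in replicate 2, so the 6 differences were not independent of each other. The 82 regions chosen in replicate 2 alone were compared with the others of that replicate in a setting added after seeing the data. Their windows held ETS matches in 12.2% against 14.6% of other regions, GATA in 4.88% against 7.32%, PU.1 in 19.5% against 21.1% and AP-1 in 7.32% against 7.61%, with RUNX at 15.9% against 15.4%. E-box matches stood at 18.3% against 12.7% there, and RBPJ matches at 14.6% against 19.7%. By the rule each of the 82 regions was positive in all 3 late sorts. The 3 sorts therefore held the same 82 regions and do not repeat the measurement. The 2645 chosen in replicate 1 alone gave ETS 29.9% against 20.2% and GATA 17.4% against 10.1%. With 3 sorts the exact permutation p could not fall below 0.25 in either. Among regions chosen in replicate 2, ETS, GATA, PU.1 and AP-1 shares were thus not higher. The E-box and RBPJ shares of these 82 regions had the direction seen over all 6 sorts, and RUNX differed by 0.430 points. Members also held more fragments than most regions, with a median of 12 against 1 over all regions, and the part of this in the motif shares was not tested.

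Other groups of regions were set against the members in settings likewise chosen after seeing the data. Against regions positive at all 5 stages, the windows gave ETS 26.0% against 15.5%, GATA 14.1% against 6.35%, RUNX 21.2% against 13.8% and CTCF 2.00% against 7.37%. CTCF, the insulator-binding protein, was lower in members in 6 of 6 sorts by -5.38 ± 3.11 points (SD, n = 6; exact permutation p = 0.0312, adjusted 0.0430). RBPJ matches were also lower in 6 of 6, while AP-1, RUNX, PU.1, ETS, GATA and E-box were higher in 6 of 6. The GC content of the windows was 50.6% in members and 56.0% in regions positive at all 5 stages. The part of base composition in these motif shares was not tested. Against regions positive at 3 other stages, ETS (10.4 points), GATA (5.51), AP-1 (5.49) and E-box (3.15) were higher in 6 of 6 sorts and none passed after adjustment (exact permutation p = 0.0312, adjusted 0.0688 for each). The unadjusted p was the same as that of the motifs that passed elsewhere, and fewer motifs tied at it. Over regions rather than sorts, RUNX and GATA matches stood together in 3.53% of member windows, 1.01% of those of regions positive at all 5 stages and 1.34% of all windows, and RUNX with PU.1 in 6.99%, 2.64% and 3.67%. The single matches were also more frequent in member windows, with RUNX in 23.3%, GATA in 16.7% and PU.1 in 31.8%, against 16.5%, 8.38% and 22.6% of all windows. The pair shares alone therefore do not show that these motifs go together in members, which was not tested.

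By position, 54.2% of the members were centred in an intron, 43.6% between genes and 2.28% in an exon, compared with 46.3%, 48.6% and 5.16% of all regions and 40.5%, 50.6% and 8.92% of those positive at all 5 stages. The median distance to the nearest annotated start site was 24831 bp, against 24862 bp for all regions and 15309 bp for regions positive at all 5 stages, and 12.4% of members lay beyond 100000 bp. Within 1500 bp of a start site lay the centres of 0.746% of members, 0.550% of all regions and 2.12% of regions positive at all 5 stages. The study's methods annotate fragments that close to a start site as promoter fragments, apart from distal ones. A low share was thus common to all groups and is not a trait of members. Members were 505 bp wide at the median, all regions 264 bp and regions positive at all 5 stages 684 bp. They had been joined from a median of 12, 1 and 28 fragments in the same order.

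Neighbouring genes were taken as the nearest start site and do not show which gene a region acts on. The members had 2096 different nearest genes, and 1729 of these were nearest to 1 member. The most were 5, at 1700034J05Rik and Gm12596 (among 7 and 13 positive regions), followed by 15 genes with 4. These included Meis1 (among 21 positive regions), Chd7 (17), Irf2 (10), Zmiz1 (22) and Arap1 (12). Of 6 gene lists, blood transcription factors were nearest to 18 members (0.706%, 10 genes of 33) and 0.446% of all regions, and blood surface and signalling genes to 12 members (0.471%, 10 genes of 36) and 0.225%. Hippo, AP-1 and TGF-beta effector genes were nearest to 17 (0.667%) and 0.337%, and endothelial genes to 11 (0.432%) and 0.370%. Pluripotency genes were nearest to 4 members (0.157%) and 0.205% of all regions, and neuronal genes to 4 (0.157%) and 0.428%. All regions together were nearest to 32 genes of either blood list. For regions positive at all 5 stages and at 3 other stages, endothelial shares were 0.557% and 0.563%, above the members. Below the members stood Hippo, AP-1 and TGF-beta genes (0.450% and 0.512%), blood transcription factors (0.493% and 0.435%) and blood surface genes (0.364% and 0.179%). Pluripotency shares were 0.257% and 0.307%, and neuronal shares 0.0858% and 0.409%. The counts are given without a test, and the lists were chosen with earlier results known.

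Members made up 4.04% of all positive regions, and counts by transcription factor gene are given beside its positive regions. Meis1, a homeobox partner of HOX proteins, had 4 members among 21 positive regions. Zfpm1, which encodes the GATA cofactor FOG1, had 3 among 19. Gfi1 had 2 among 7, Fli1 2 among 13 and Runx1 2 among 31. Spi1 and Myb had 1 among 4 each, Elf1 1 among 9, Mecom 1 among 17 and Irf8 1 among 26. The largest of these members was at Zfpm1 (chr8:122314472-122315473, in its intron) with 46 positive fragments, all from replicate 1, which were 18 at HE1, 20 at HE2 and 8 at HP. It also had 10, 4 and 1 negative fragments at those stages. Its neighbours in the gene, chr8:122309144-122310214 and chr8:122317763-122318775, had 16 positive fragments each. The second of these met the rule only with the replicates pooled, since its lone HE1 fragment came from replicate 2.

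The Spi1 member (chr2:91082606-91083370) lay in an intron, centred 583 bp downstream of a start site of the gene for PU.1. In replicate 1 it had 13 positive fragments at HE1, 4 at HE2 and 11 at HP, with 8, 1 and 3 negative ones. In replicate 2 it had no positive fragment, and 1 negative fragment each at HE2 and HP. At HE1 its positive fragments fell 3 in Low, 4 in Medium and 6 in High, and at HP 2, 5 and 4. Its 10 High fragments compared with 12.3 expected from the sorts, and it was not called. A member 46546 bp upstream of Gfi1, a repressor that acts downstream of RUNX1, lay in an intron of the adjoining gene Evi5 (chr5:107772040-107772661) and had 6, 5 and 2 positive fragments at HE1, HE2 and HP, none of them in the Low gate. Irf8, a factor of the monocyte lineage, had a member 70492 bp downstream (chr8:120808799-120809463) with 7 positive fragments at HE1 and 11 at HE2 in replicate 1, whose only HP fragment came from replicate 2. The leading Meis1 member (chr11:18866311-18866693, 152467 bp downstream) had 7, 6 and 1 positive fragments at HE1, HE2 and HP.

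Members also lay near some of the genes whose products define the sorted cells or their endothelium. Those described were picked because they had a member with many positive fragments. Kit had 1 member among 9 positive regions, and Itga2b, which encodes CD41, was nearest to no member. The positive regions numbered 25 at Kdr, 5 at Tek, 2 at Cd34, 15 at Flt1 and 23 at Efnb2. Kdr, which encodes FLK1, had 2 members, the leading one 35614 bp upstream (chr5:76013812-76014326) with 7, 11 and 2 positive fragments at HE1, HE2 and HP. At HE2, 9 of the 11 were in the Low gate. Tek, which encodes TIE2, had 1 in an intron (chr4:94746256-94746780) with 11, 4 and 1. Cd34, a surface protein of endothelium and progenitors, had 1 lying 10833 bp upstream (chr1:194927687-194928289) with 14, 6 and 5, of which 2 were in the High and 8 in the Low gate (5.90 High expected; not called after adjustment). Flt1, a VEGF receptor, had an intronic member (chr5:147721290-147721915) with 10, 8 and 4, and Efnb2, the arterial ephrin ligand, an intronic one (chr8:8623372-8624227) with 7, 8 and 2. None of the 5 regions described at Kdr, Tek, Cd34, Flt1 and Efnb2 had a positive fragment in replicate 2.

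The 10 members with the most positive fragments, 53 to 68 each, lay nearest to Tbc1d24, Sqstm1, Gm21057, Fem1al, Slit1, Col18a1, Gm11762, Nek6, Akap13 and Myh9. Those nearest to Gm21057 and Fem1al lay in introns of Zfp710 and Eml6. The highest was the intronic Tbc1d24 region (chr17:24196821-24197688) with 36 positive fragments at HE1, 24 at HE2 and 8 at HP, and 26, 3 and 2 negative ones, all from replicate 1. The region 2468 bp upstream of Sqstm1 (chr11:50212870-50213706), the gene of the autophagy receptor p62, had 22, 32 and 10 in replicate 1 and 1 each at HE1 and HP in replicate 2. Replicate 2 gave 2 positive fragments at Sqstm1, 1 each at Gm21057, Fem1al, Gm11762 and Nek6, and none at the other 5. All 10 had no fragment in any ES or HB library.

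**Figure D5:**
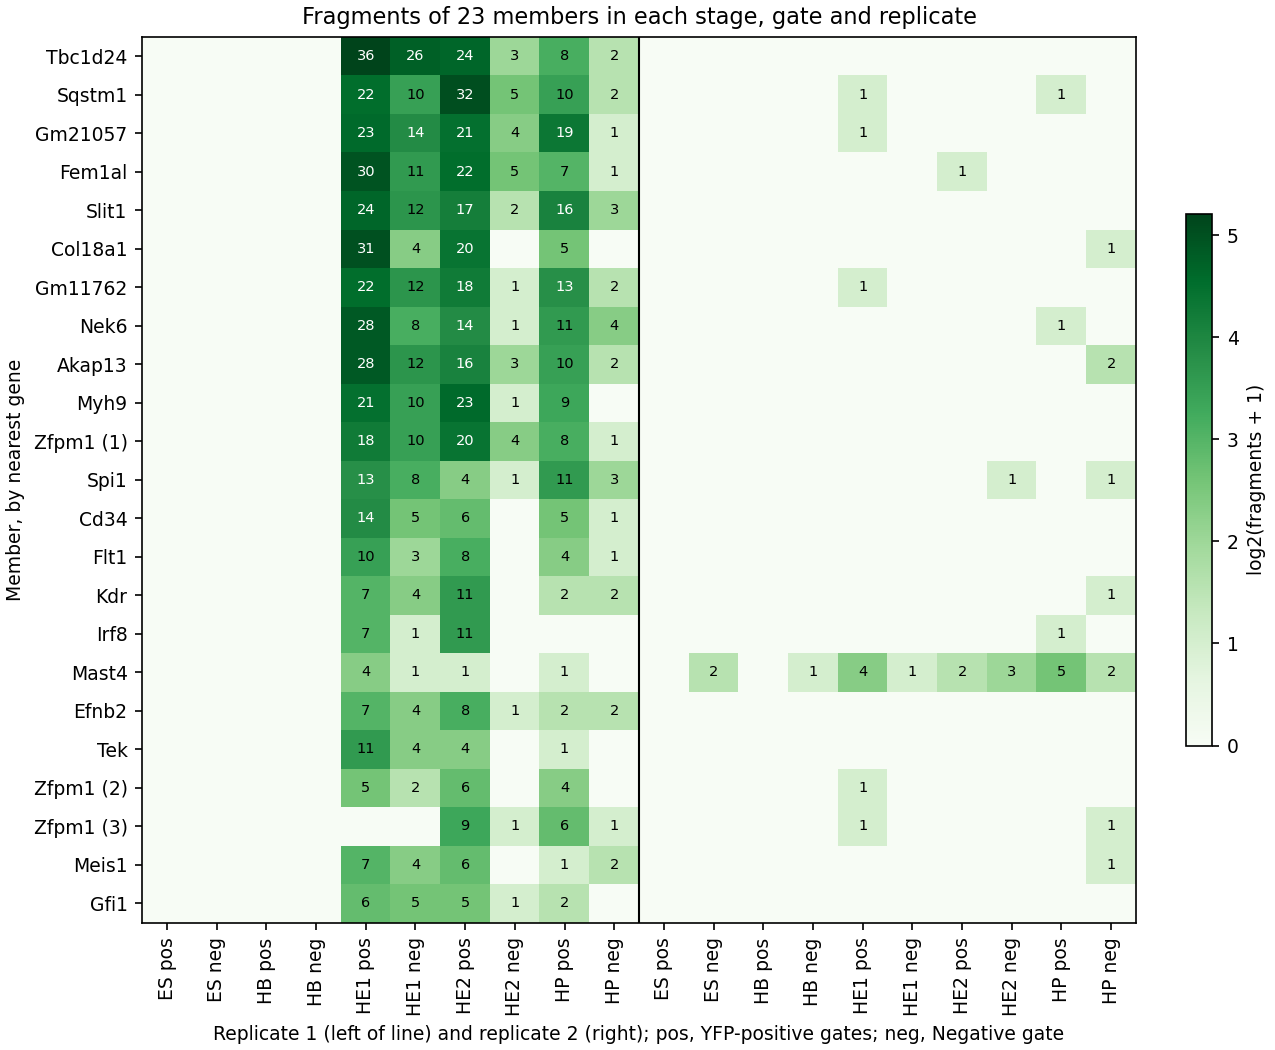
Number of fragments in each of 23 members (rows, by nearest gene) for every stage in the positive gates (pos) and the Negative gate (neg), replicate 1 left and replicate 2 right of the line; the colour is log2(fragments + 1) and blank cells are 0. Positive cells at ES and HB are blank by the rule, negative cells there are blank for every row but Mast4, and replicate 2 holds more than 2 fragments per cell in the Mast4 row only.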

How the data were processed

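The authors trimmed reads with Trim Galore, aligned them with Bowtie2 to mm10 and, per the methods, removed background fragments and restricted the lists to open chromatin. Versions of these tools for the reporter libraries were not given. The authors also annotated fragments within 1500 bp of a start site as promoter fragments, apart from distal ones. The values they deposited are coordinates of fragments in base pairs, with no read count or score, and each list holds a fragment once. PCR without molecular identifiers can turn 1 molecule into several fragments, so Wilson 95% intervals cover counting error only. The members, gene lists, motifs and tests were chosen with earlier results of these data known.

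Regions, counts and tests were computed in Python 3.11.15 with numpy 2.4.6, pandas 2.3.3, scipy 1.17.1, statsmodels 0.14.6 and pysam 0.24.0. Sequence, curated RefSeq start sites (31612) and exons came from GRCm38, and 36 fragments off the main chromosomes had none. Recurrence between replicates was tested by exact permutation, members and other regions by sign changes over the 6 late sorts, and High and Low gates by a Cochran-Mantel-Haenszel test per region with Benjamini-Hochberg adjustment, checked on simulated data. The threshold was 0.05. A planned permutation test of the Negative share of members is not read, because the members were chosen in the same sorts. The labels do not say what a replicate number shares between stages. Named regions were the 10 members with the most positive fragments, those meeting the rule in each replicate, up to 12 nearest to blood or endothelial list genes, and the 5 genes nearest to most members, where ties at 4 members left more than 5. Alternatives were collapsing fragments within 5 bp, an overlap of 50 bp, leaving out fragments within 1500 bp of a start site, a stricter rule, thinning, and leaving out libraries, sorts or replicates.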

Additional observations from a re-analysis of the deposited data

Results flagged for a closer look

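2 values, both of HE1 of replicate 2, lay far from the other 5 sorts. The Low gate share, members minus other regions, was -19.3 percentage points there, and the median fragment length, members minus other regions, was -111.5 bp. In each case the gap to the nearest other sort took up most of the range of the 6 sorts (0.741 and 0.883 of it). Of 18 sets of sorts or libraries examined in this way, chance would give about 1 in 20. The other regions of that sort had a median length of 331 bp, and 88.8% of their positive fragments were in the Low gate.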

How the results depend on the processing

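Counts of members depended on depth and on replicate 1. They were 1238 with 2 or more fragments required at each late stage, 1548.2 after thinning, and 82 to 4207 when a replicate or a sort was left out. The late minus early Negative share was 7.11 points with and without the replicate block and 0.943 to 14.5 points with libraries left out. Its p-values are not read, with the block or without, since the members were chosen in the same sorts. Requiring 2 fragments gave a High share difference of 2.55 points and a length difference of -14.2 bp. With sorts or replicates left out, these ran from -7.60 to 1.40 points and from -46.3 to -12.3 bp, and the GC difference from -4.17 to 0.429 points. Fewer than 6 sorts allow no p under 0.05. Recurrence was -0.0153 points for regions chosen in replicate 2 alone. Motifs that passed numbered 7 in central windows and 8 in windows against regions positive at all 5 stages, but 0 in windows against regions positive at 3 other stages. These counts turned on how many motifs tied at the smallest p that 6 sorts allow. Regions called between the High and Low gates numbered 0 with near-identical fragments collapsed, 18 at a minimum of 5 fragments, 1 at 20, and 0 to 9 without a replicate.

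Single motif differences turned sign as follows. OCT was 0.331 with 2 fragments required, 0.472 against regions positive at all 5 stages, and 0.282 and 0.126 in windows against those and against regions positive at 3 other stages. In windows without replicate 1, AP-1 was -0.292, PU.1 -1.62, ETS -2.36, GATA -2.44, SOX -0.147, OCT 1.54 and CTCF 0.0662, and without replicate 2 TEAD was 0.348, SOX -0.00423 and OCT 0.256. In whole fragments with sorts or replicates left out, AP-1 ran from -2.17 to 9.53 points, RUNX from -3.18 to 6.78, PU.1 from -8.37 to 5.85, GATA from -3.12 to 7.84, SOX from -1.52 to 1.37, OCT from -1.76 to 1.08 and E-box from -0.0463 to 4.88. The cause was not tested.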
